A study of Mus musculus with 6 samples.

Results

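Ribosomal RNA (rRNA) was read from 3 of the 20684 entries in the deposited tables. Rn45s, the symbol of the mouse 45S ribosomal precursor, was the entry of the gene table (19467 genes). The precursor contains the mature RNAs as well as the spacers between them, so reads of Rn45s do not separate precursor from mature rRNA. The 2 names containing rRNA in the repeat table (1217 repeats) were LSU-rRNA_Hsa and SSU-rRNA_Hsa, repeat annotations that match the RNA of the large and the small ribosomal subunit (Hsa is the label of a human reference sequence). All 3 passed the filter on low counts.

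Both arms were E14Tg2A, a line of embryonic stem cells from mouse, grown in serum with leukaemia inhibitory factor. Cells of the LINE1 ASO arm received 5 nmol of an antisense oligonucleotide (ASO) against the LINE1 retrotransposon by nucleofection, and cells of the RC ASO arm 5 nmol of a control oligonucleotide labelled RC. Both oligonucleotides carried the fluorophore Lissamine, and 300000 fluorescent cells of each sample were sorted at 48 h, so the controls share the electroporation, the label and the sort. There were 3 libraries in each arm, made with a directional mRNA kit. The libraries held 26633433 to 31704616 gene-assigned reads in the LINE1 ASO arm and 19954026 to 29092272 in the RC ASO arm. Whether replicates were separate cultures is not in the labels, so p-values refer to the spread among these 6 libraries and that spread may be technical. All 5 embryonic stem cell markers had reads in each library, with a summed level of 2139 to 2454 RPM (reads per 1000000 gene-assigned reads of the library) in the LINE1 ASO arm and 2689 to 2840 in the RC ASO arm. Of these 5, edgeR called 1 lower with the LINE1 ASO (Pou5f1, log2 fold change -0.36), DESeq2 called 2 lower and the fit with the replicate number as a block 4. Of all 14725 genes tested, these fits called 173, 599 and 2373 lower. The call of Pou5f1 was lost with library totals (edgeR adjusted p = 0.0502) and without LINE1 ASO replicate 1 or 3 or RC ASO replicate 1 or 3 (edgeR adjusted p 0.0753 to 0.132). The 5 fibroblast markers summed to 19.3 to 30.0 RPM in the LINE1 ASO arm and 23.1 to 34.9 in the RC ASO arm, with Lum at 0 reads in LINE1 ASO replicate 3. The 4 primitive endoderm markers summed to 8.84 to 10.7 RPM in the LINE1 ASO arm and 6.32 to 7.37 in the RC ASO arm. The 3 markers of 2-cell-like cells, a rare state of these cultures, summed to 47.9 to 122 RPM in the LINE1 ASO arm and 3.68 to 4.95 in the RC ASO arm, and their part in the rRNA values was not tested.

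Ribosomal RNA is transcribed in the nucleolus by RNA polymerase I (Pol I) as a long precursor, the 45S transcript. Cleavage of external and internal transcribed spacers releases the 18S RNA of the small subunit and the 5.8S and 28S RNAs of the large subunit, while the 5S RNA is made separately by RNA polymerase III (Pol III). Mature rRNA has no poly(A) tail and makes up most of the RNA of a cell, so the rRNA reads of an mRNA library are a remainder, and whether they follow the amount of rRNA in the cells was not tested. In bulk samples, fewer cells of a type and less RNA per cell cannot be told apart.

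The junction that separates a mature RNA from its spacer is shown for 18S, because the small subunit repeat is named for the mature side of it while the precursor runs through it. The stretch is from GENCODE release M21 transcript Gm42418, a symbol that RefSeq lists as a synonym of the 18S-related gene Rn18s-rs5, at chr17:39848102-39848301 on the plus strand of GRCm38. That build is not the mm9 build of the counts. Capitals mark the conserved last bases of 18S, and the lower-case letters after them belong to the first internal transcribed spacer.
18S end and spacer: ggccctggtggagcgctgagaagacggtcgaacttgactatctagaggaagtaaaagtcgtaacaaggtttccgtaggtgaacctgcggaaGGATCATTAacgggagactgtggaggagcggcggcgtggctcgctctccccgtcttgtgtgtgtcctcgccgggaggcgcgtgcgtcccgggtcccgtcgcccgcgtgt

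The comparison asked whether rRNA reads differed between cells with the LINE1 ASO and cells with the RC ASO. In all 3 entries the mean was lower in the LINE1 ASO arm, at 0.523 of the RC ASO mean for Rn45s, 0.473 for LSU-rRNA_Hsa and 0.448 for SSU-rRNA_Hsa, but none passed the test across all features. The RC ASO arm was widely spread, and its replicate 1 was the highest library for each entry. Levels are in RPM, scaled by the gene-table total of the library for both tables.

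Rn45s, the entry of the gene table, had 2735, 2240 and 2172 RPM in LINE1 ASO replicates 1, 2 and 3, against 7273, 3714 and 2666 in RC ASO replicates 1, 2 and 3. The arms overlapped, since LINE1 ASO replicate 1 lay above RC ASO replicate 3. With library sizes adjusted by TMM factors, which correct for composition, the arms did not overlap, at 2671, 2155 and 2124 in the LINE1 ASO libraries against 7557, 3748 and 2768 in the RC ASO libraries. Means were 2382 ± 307 in the LINE1 ASO arm and 4551 ± 2415 in the RC ASO arm (SD, n = 3 each). The difference of mean log2 levels was -0.81 (two-sided exact permutation p = 0.2, and 0.1 is the smallest p of this design). The fitted log2 fold change was -1.02 ± 0.33 (SE), with an unadjusted p = 0.0164 and an adjusted p = 0.123 (quasi-likelihood F test of edgeR, Benjamini-Hochberg over 14725 genes, the adjusted p meant from here on). In that fit 6.11% of genes were called at an adjusted p under 0.05, that is 4.93% of all genes higher and 1.17% lower. At an unadjusted p under 0.05, 8.6% of genes were lower. With TMM-adjusted sizes 11.9% of genes lay lower in every LINE1 ASO library than in every RC ASO library.

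SSU-rRNA_Hsa, the small subunit entry, had 2290, 1791 and 1743 RPM in LINE1 ASO replicates 1, 2 and 3, and 7104, 3452 and 2430 in RC ASO replicates 1, 2 and 3. Each LINE1 ASO library lay below each RC ASO library, by either scaling. Means were 1941 ± 303 in the LINE1 ASO arm and 4329 ± 2457 in the RC ASO arm (SD, n = 3 each). The fitted log2 fold change was -1.24 ± 0.38 (SE), with an unadjusted p = 0.0119 and an adjusted p = 0.481 (edgeR, over 806 repeats). At an unadjusted p under 0.05, 2.23% of repeats were lower. DESeq2 gave an adjusted p = 0.0306, and the adjusted p ranged from 0.0306 to 0.999 over all alternatives.

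LSU-rRNA_Hsa, the large subunit entry, had 1935, 1162 and 1937 RPM in LINE1 ASO replicates 1, 2 and 3, and 5717, 3029 and 1893 in RC ASO replicates 1, 2 and 3. The arms overlapped, with RC ASO replicate 3 below LINE1 ASO replicates 1 and 3. With TMM-adjusted library sizes they did not overlap, the nearest libraries being LINE1 ASO replicate 3 at 1894 and RC ASO replicate 3 at 1966. Means were 1678 ± 447 in the LINE1 ASO arm and 3547 ± 1964 in the RC ASO arm (SD, n = 3 each). The fitted log2 fold change was -1.16 ± 0.41 (SE), with an unadjusted p = 0.0237 and an adjusted p = 0.625 (edgeR). Of all repeats tested, 12.5% lay lower in every LINE1 ASO library than in every RC ASO library with TMM-adjusted sizes. By edgeR 0% were called, with 51 repeats at an unadjusted p under 0.05, of which 18 were lower. DESeq2 called 9 repeats, 8 higher and 1 lower.

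Summed over both repeat entries, rRNA repeats stood at 4224, 2954 and 3680 RPM in LINE1 ASO replicates 1, 2 and 3, and at 12821, 6481 and 4324 in RC ASO replicates 1, 2 and 3. The arms did not overlap, although LINE1 ASO replicate 1 and RC ASO replicate 3 lay close together. The difference of mean log2 levels was -0.99 (two-sided exact permutation p = 0.1, the smallest this design allows). As a share of all repeat-assigned reads the sum was 5.48%, 5.64% and 5.06% in the LINE1 ASO libraries and 16.2%, 10.1% and 6.24% in the RC ASO libraries. Counting error was small beside these spreads: the half-width of the 95% Poisson interval of a member's count was 0.515% to 1.05% of the count, and it covers counting error only.

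**Figure D1:**
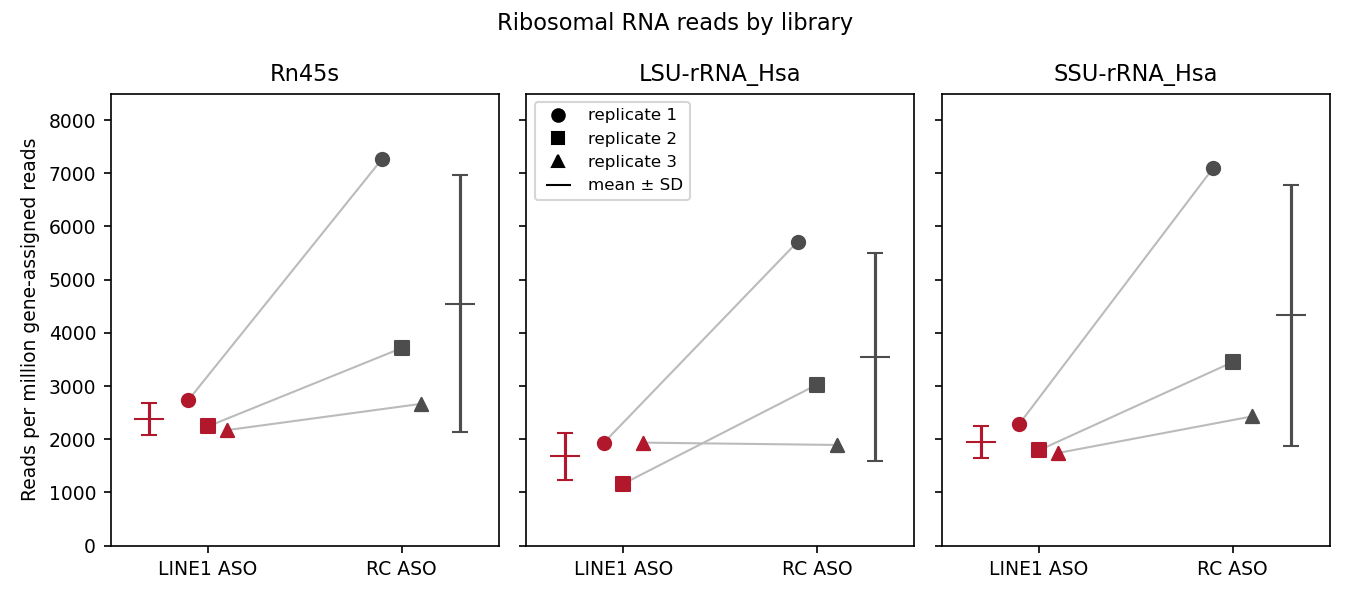
Level in RPM, reads per 1000000 gene-assigned reads (y axis) of Rn45s and of both rRNA repeat entries, 1 point per library, with LINE1 ASO left of RC ASO, lines joining libraries of the same replicate number and bars for the mean ± SD of 3 libraries. RC ASO replicate 1 is the highest point in each panel (7273 for Rn45s), and for LSU-rRNA_Hsa RC ASO replicate 3 (1893) lies among the LINE1 ASO libraries (1162 to 1937).

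The labels give no meaning to the replicate numbers, but libraries of the same number deviated together over all genes. Pairs by number are thus an assumption drawn from these data. Relative to the RC ASO library of its own number, Rn45s stood at 37.6%, 60.3% and 81.5% in LINE1 ASO replicates 1, 2 and 3. For SSU-rRNA_Hsa the shares were 32.2%, 51.9% and 71.7%, and for LSU-rRNA_Hsa 33.8%, 38.4% and 102%. By gene-table totals Rn45s and SSU-rRNA_Hsa were thus lower in 3 of 3 pairs and LSU-rRNA_Hsa in 2 of 3. The gap was smallest in pair 3 for each entry. With TMM-adjusted sizes LSU-rRNA_Hsa was lower in pair 3 too, at 1894 in LINE1 ASO replicate 3 against 1966 in RC ASO replicate 3. The share of all features lower in 3 of 3 pairs was not counted. With the replicate number as a block no entry passed, with adjusted p = 0.158 for Rn45s, 0.528 for LSU-rRNA_Hsa and 0.354 for SSU-rRNA_Hsa (edgeR).

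The size of the difference rested in part on RC ASO replicate 1. Without that library the log2 fold change was -0.51 ± 0.16 (SE) for Rn45s, -0.64 ± 0.31 for LSU-rRNA_Hsa and -0.69 ± 0.24 for SSU-rRNA_Hsa, against -1.02, -1.16 and -1.24 with it. The adjusted p without it was 0.174 for Rn45s and 0.945 for both repeat entries (edgeR). Without both replicate 1 libraries the values were -0.62, -0.75 and -0.82. All 3 entries kept a value below 0 without any single library, up to -1.31 for Rn45s, -1.48 for LSU-rRNA_Hsa and -1.54 for SSU-rRNA_Hsa without RC ASO replicate 3.

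**Figure D2:**
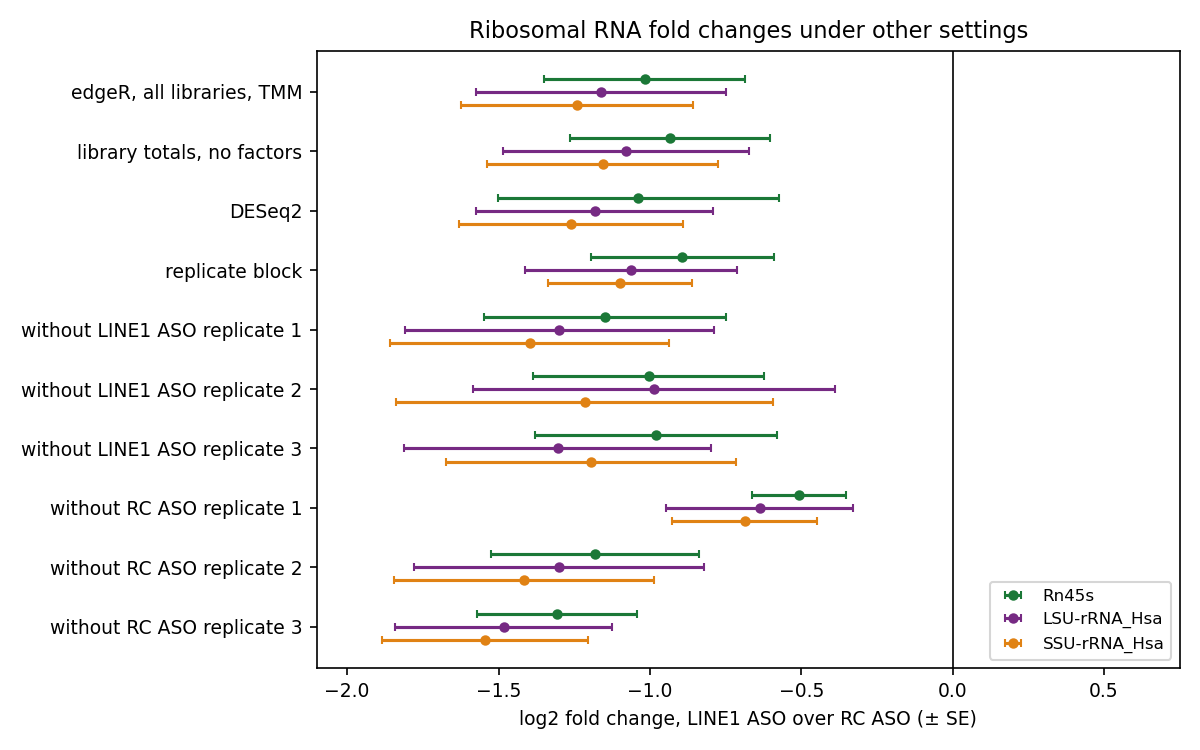
Log2 fold change of LINE1 ASO over RC ASO (x axis, ± SE) of the 3 rRNA entries in the edgeR fit with all libraries (top row) and with other scalings, DESeq2, the replicate block or 1 library left out. Every point lies below 0, and the points without RC ASO replicate 1 lie nearest to it (-0.51, -0.64 and -0.69).

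Genes of like abundance give a scale for these values. Of the 85 genes with at least 1000 CPM (counts scaled like RPM but with TMM-adjusted sizes) in either arm, Rn45s among them, 0 had a lower log2 fold change than Rn45s. The next lowest stood at -0.49 and the median of the 85 was -0.22, with 11 called lower and 0 higher, and of all 14725 genes tested 17 had a lower value than Rn45s. The SD of the log2 level of Rn45s was 0.19 in the LINE1 ASO arm and 0.74 in the RC ASO arm. The median SD of the 85 genes was 0.092 in the LINE1 ASO arm and 0.095 in the RC ASO arm, and 12 of them had a larger SD than Rn45s in the LINE1 ASO arm and 0 in the RC ASO arm. By number of reads Rn45s ranked between 2 and 17 among the genes of a library. This is a description, since these genes were not chosen to match Rn45s in any other respect.

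The next comparison asked whether the gene table and the repeat table agree. Across the 6 libraries the log2 levels of Rn45s and of the summed rRNA repeats moved together, with Pearson's r = 0.986 (exact permutation p = 0.00556) and Spearman's rho = 0.886 (exact permutation p = 0.0333). Without RC ASO replicates 1 and 2, the libraries farthest from the median of Rn45s, r was 0.789 over 4 libraries (exact permutation p = 0.333), so the relation no longer passed without them. The values share the library and its read total, and the sources used here do not say whether a read could be counted in both tables.

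Taken singly, the small subunit entry followed Rn45s most closely. Pearson's r between Rn45s and SSU-rRNA_Hsa was 0.997 (exact permutation p = 0.00417, adjusted p = 0.0125 over 3 relations), with Spearman's rho = 0.943 (exact permutation p = 0.0167, adjusted p = 0.05). Between Rn45s and LSU-rRNA_Hsa r was 0.944 (exact permutation p = 0.0139, adjusted p = 0.0167) and rho 0.657 (exact permutation p = 0.175, adjusted p = 0.242). Between the subunit entries r was 0.946 (exact permutation p = 0.0167, adjusted p = 0.0167) and rho 0.6 (exact permutation p = 0.242, adjusted p = 0.242). Without the 2 libraries farthest from the median of the first-named entry, r was 0.972 for Rn45s with SSU-rRNA_Hsa, 0.468 for Rn45s with LSU-rRNA_Hsa and 0.840 for the subunit entries.

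**Figure D3:**
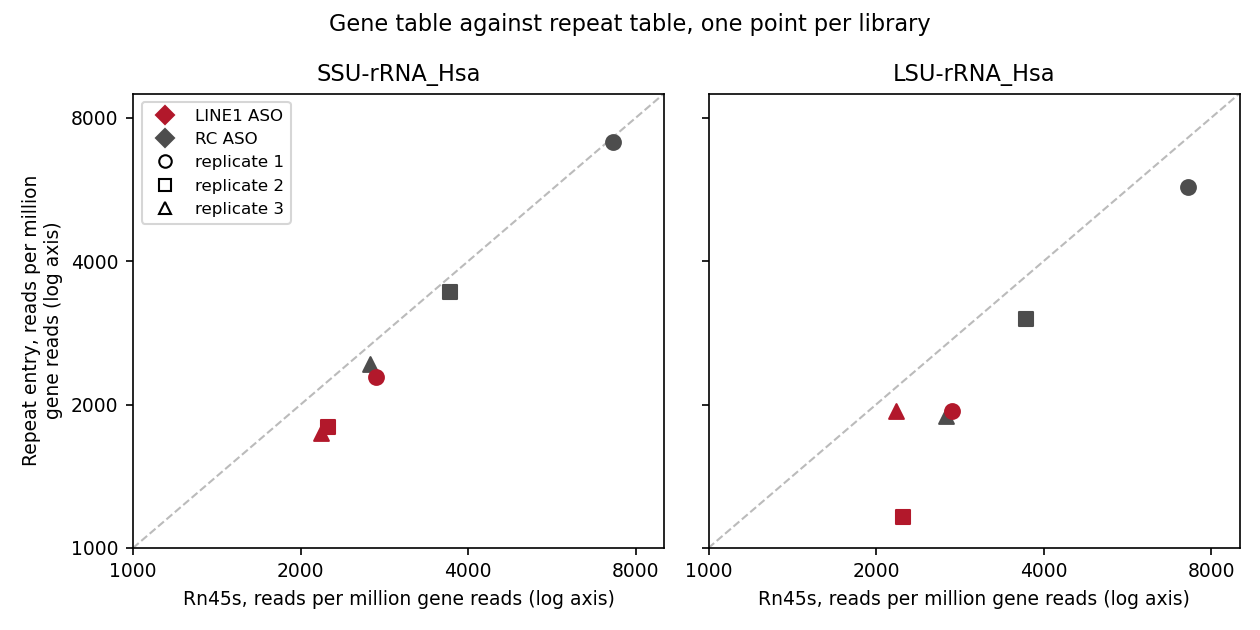
Levels of SSU-rRNA_Hsa (left) and LSU-rRNA_Hsa (right) against Rn45s, all in RPM on log axes, 1 point per library, with the dashed line where both are equal. The SSU-rRNA_Hsa points run along a line just under equality (r = 0.997), and LINE1 ASO replicate 2 lies low for LSU-rRNA_Hsa.

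Ratios of rRNA reads within a library do not depend on how the library is scaled. SSU-rRNA_Hsa reads per Rn45s read were 0.837, 0.800 and 0.802 in LINE1 ASO replicates 1, 2 and 3, and 0.977, 0.929 and 0.912 in RC ASO replicates 1, 2 and 3. Every LINE1 ASO library thus had fewer small subunit reads for each Rn45s read than every RC ASO library, with means of 0.813 ± 0.0210 in the LINE1 ASO arm and 0.939 ± 0.0336 in the RC ASO arm (SD, n = 3 each). The log2 difference was -0.21 (two-sided exact permutation p = 0.1, the smallest possible), and with 1 library left out it ranged from -0.23 to -0.18. This ratio and the next were chosen after the data were seen.

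LSU-rRNA_Hsa reads per Rn45s read were 0.707, 0.519 and 0.892 in LINE1 ASO replicates 1, 2 and 3, and 0.786, 0.816 and 0.710 in RC ASO replicates 1, 2 and 3. Those values overlapped, with a log2 difference of -0.16 (two-sided exact permutation p = 0.6). The ratio of large to small subunit reads was 0.845, 0.649 and 1.11 in LINE1 ASO replicates 1, 2 and 3, and 0.805, 0.878 and 0.779 in RC ASO replicates 1, 2 and 3. It was more variable in the LINE1 ASO arm, with an SD of 0.232 against 0.0512 in the RC ASO arm, and the arms overlapped, with a log2 difference of 0.049 (two-sided exact permutation p = 0.8). Summed rRNA repeats per Rn45s read ranged from 1.32 to 1.69 in the LINE1 ASO arm and from 1.62 to 1.76 in the RC ASO arm (log2 difference -0.18, two-sided exact permutation p = 0.2).

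**Figure D4:**
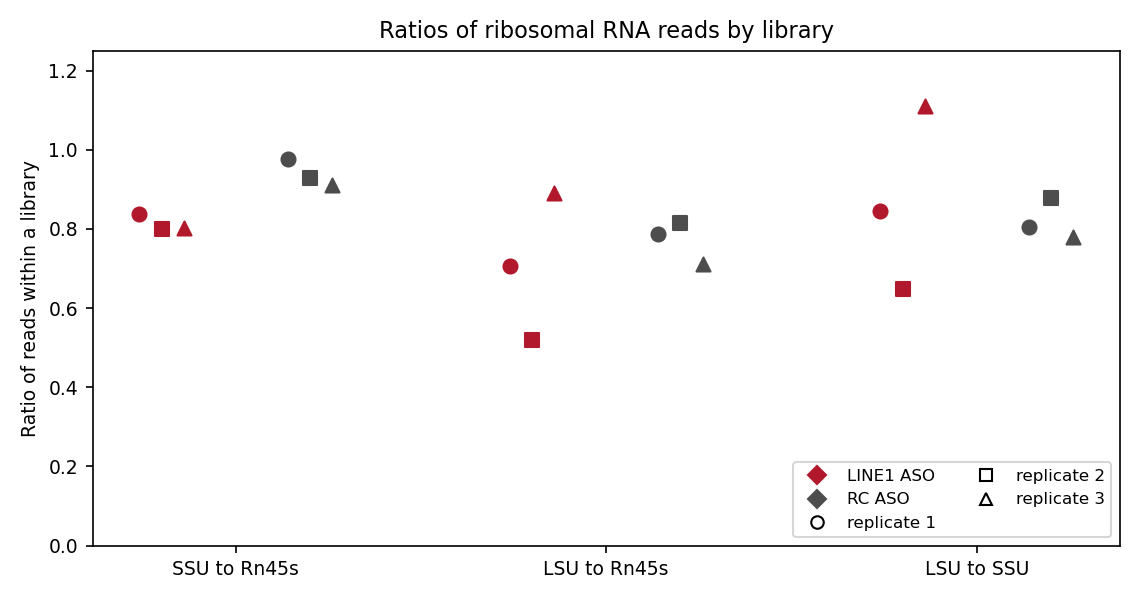
Reads of one rRNA entry divided by reads of another within each library (y axis), with LINE1 ASO libraries left of RC ASO libraries for each ratio and symbols for the replicate. Of the ratios drawn, that of SSU to Rn45s alone has arms that do not overlap (0.800 to 0.837 in LINE1 ASO, 0.912 to 0.977 in RC ASO).

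The genes whose pattern over the 6 libraries was most like that of Rn45s, among 12181 whose log2 CPM averaged 1 or more, were Mmadhc, Fcf1, Lars2, Serpini1 and Rab25. Their Pearson correlations of log2 CPM with Rn45s were 0.988, 0.981, 0.979, 0.977 and 0.972, and 61 genes reached 0.9. These values describe 6 libraries whose depth and scaling the genes share, and they were the highest of many. Lars2 is the gene of the mitochondrial leucyl-tRNA synthetase. Whether its counted region holds sequence like rRNA, so that rRNA reads could be counted there, was not tested, which limits what its level and ratios measure. It had 305, 309 and 299 RPM in LINE1 ASO replicates 1, 2 and 3, and 881, 494 and 302 in RC ASO replicates 1, 2 and 3. The level spanned 299 to 309 RPM in the LINE1 ASO arm and varied 2.92-fold within the RC ASO arm, as SSU-rRNA_Hsa did. The log2 fold change was -0.96 ± 0.33 (SE, edgeR adjusted p = 0.141). Its ratios to rRNA were chosen after the data were seen. Lars2 reads per Rn45s read were 0.112, 0.138 and 0.138 in LINE1 ASO replicates 1, 2 and 3, and 0.121, 0.133 and 0.113 in RC ASO replicates 1, 2 and 3. Lars2 reads per LSU-rRNA_Hsa read were 0.158, 0.266 and 0.154 in LINE1 ASO replicates 1, 2 and 3, and 0.154, 0.163 and 0.159 in RC ASO replicates 1, 2 and 3, with LINE1 ASO replicate 2 the highest. The arms overlapped in both ratios.

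Of the other 4, Fcf1, which encodes a protein of early 18S processing, averaged 59.4 CPM in the LINE1 ASO arm and 68.1 CPM in the RC ASO arm, a log2 fold change of -0.20. Mmadhc, a gene of vitamin B12 metabolism, stood at -0.09, Serpini1, which encodes neuroserpin, at -0.32, and the small GTPase gene Rab25 at -0.44, and none of the 4 passed. With the replicate block Fcf1 passed (edgeR adjusted p = 0.0146). Among 580 repeats, the simple repeat (T)n (r = 0.982), MER58C (0.957), Lx7 (0.922), (CAAA)n (0.908) and IAPEY2_LTR (0.898) were most like the summed rRNA repeats. Their log2 fold changes lay between -0.37 for (T)n and -0.14 for MER58C, and none passed.

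Of 18 genes of the Pol I machinery, which makes the precursor, 0 were called by edgeR, 2 had an unadjusted p under 0.05 and 0 were called by DESeq2. Of all 14725 genes tested, edgeR called 899, with 3256 at an unadjusted p under 0.05, and DESeq2 called 1625. The median log2 fold change of the 18 was -0.03, against 0.01 for all genes, with 10 of 18 below 0. Without RC ASO replicate 2 the median was -0.14, with 15 of 18 below 0, and without LINE1 ASO replicate 2 it was 0.011. The 2 were Ttf1, the transcription termination factor of Pol I, at 0.23 ± 0.09 (SE), and the subunit gene Polr1c at -0.21 ± 0.09, with edgeR adjusted p = 0.200 and 0.210. With the replicate block, which called 4964 of all genes, 1 gene of the list was called higher and 4 lower, among them Ttf1 and Polr1c (edgeR adjusted p = 0.0275 and 0.00626).

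Of 80 genes of nucleolar rRNA processing and modification, 2 fell and 0 rose, beside 1.17% of all genes lower and 4.93% higher. A log2 fold change below 0 was found in 62 of the 80, against 49% of all genes, and the median was -0.13. With library totals 49 of the 80 lay below 0, with a median of -0.046 against 0.088 for all genes. Nop10, a small protein of the ribonucleoproteins that place pseudouridines in rRNA, fell by 0.37 on the log2 scale (SE 0.07, adjusted p = 0.0313), and the exosome gene Exosc8 fell by 0.28 (SE 0.06, adjusted p = 0.0494, both edgeR). Neither passed without LINE1 ASO replicate 1 or 3 or RC ASO replicate 1 or 3 (edgeR adjusted p 0.0744 to 0.176), and Exosc8 did not pass with library totals in place of TMM either (0.131). The number of members called lower was 0 in each of these 4 fits, where 2 to 13 of all genes were called lower. It was 19 without RC ASO replicate 2, where 479 of all 15042 genes tested were called lower. Under the replicate block it was 40, with 4 higher, beside 2373 lower and 2591 higher of all 14725 genes. By DESeq2 it was 6, beside 599 of all genes. The median of the list was -0.22 without RC ASO replicate 2 and lay between -0.18 and -0.10 without any other single library.

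Ncl, which encodes nucleolin, a nucleolar protein of Pol I transcription and early rRNA processing, had 3533, 3343 and 3619 RPM in LINE1 ASO replicates 1, 2 and 3, and 3883, 3687 and 3995 in RC ASO replicates 1, 2 and 3. Each LINE1 ASO library stood at 90.6% to 91.0% of the RC ASO library of its own number, and the arms did not overlap. With TMM-adjusted sizes 11.9% of all genes lay lower without overlap. The log2 fold change of Ncl was -0.22 ± 0.07 (SE, adjusted p = 0.109), and with the replicate block the adjusted p was 5.58e-04 (both edgeR). Ncl also passed without RC ASO replicate 2 (edgeR, adjusted p = 0.0386) and by DESeq2 (0.0377). In 10 of 14 alternatives it was not called. Among these were library totals (edgeR adjusted p = 0.236), RLE factors (0.0797) and any other single library left out (0.116 to 0.265).

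Of 21 genes of the Pol III machinery, which makes 5S RNA and tRNA, 1 rose and 1 fell. Of all genes 4.93% were called higher and 1.17% lower. The median log2 fold change of the list was 0.06. With the replicate block 4 of the list were called higher and 2 lower, beside 2591 higher and 2373 lower of all 14725 genes. Without LINE1 ASO replicate 1 or RC ASO replicate 2 the median was 0.0075 or 0.0082. Gtf3c1, the largest subunit of the initiation factor TFIIIC, rose by 0.53 ± 0.06 (SE, adjusted p = 0.00452) and passed without any single library (edgeR adjusted p up to 0.0387). Polr3g, a Pol III subunit abundant in pluripotent cells, fell by 0.32 (SE 0.07, adjusted p = 0.0335), and did not pass without LINE1 ASO replicate 1 or 3 or RC ASO replicate 1 or 3 (edgeR adjusted p 0.103 to 0.130) or with library totals (0.0581). The 5S repeat itself had few reads, 187, 58 and 152 in LINE1 ASO replicates 1, 2 and 3 and 96, 127 and 162 in RC ASO replicates 1, 2 and 3. Its log2 fold change of -0.24 ± 0.38 (SE) turned to 0.091 without LINE1 ASO replicate 2, which had the fewest 5S reads of all. RC ASO replicate 1, the highest library of the 3 rRNA entries, had 4.81 RPM of 5S, between the other RC ASO libraries.

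Other RNAs without a poly(A) tail were set beside rRNA, since their reads too are a remainder in an mRNA library. Genes of this kind in the gene table, chiefly small nucleolar RNAs, summed to 354, 427 and 402 RPM in LINE1 ASO replicates 1, 2 and 3, and to 336, 384 and 430 in RC ASO replicates 1, 2 and 3. RC ASO replicate 1, the highest library for rRNA, was the lowest here. Of 109 such genes 62 were tested and 0 were called by edgeR, with 4 at an unadjusted p under 0.05, 1 called by DESeq2 and a median log2 fold change of -0.18 (-0.27 to -0.17 without any single library). Of all 14725 genes tested, 3256 had an unadjusted p under 0.05 (edgeR) and DESeq2 called 1625. Of the 62, 45 had a log2 fold change below 0, against 49% of all genes. With library totals 40 of the 62 lay below 0, with a median of -0.098 against 0.088 for all genes. Terc, the RNA template of telomerase, had 29, 20 and 12 reads in LINE1 ASO replicates 1, 2 and 3 against 5, 6 and 3 in the RC ASO replicates (log2 fold change 1.78 ± 0.44 (SE), adjusted p = 0.0595). A count of 10, the filter's default, was reached in the LINE1 ASO arm alone, so Terc was tested through its higher arm. Neat1, the scaffold RNA of paraspeckles, whose short form does have a poly(A) tail, stood at 0.59 ± 0.17 (SE, adjusted p = 0.0850, both edgeR). Both passed with the replicate block (edgeR adjusted p = 0.00548 for Terc and 0.00153 for Neat1). In that fit 2 genes of the list were called higher and 3 lower, beside 2591 higher and 2373 lower of all 14725 genes. Neat1 also passed by DESeq2 (0.0208) and without RC ASO replicate 2 (edgeR adjusted p = 0.0337), and Terc with library totals (edgeR adjusted p = 0.0494). Many small nucleolar RNAs lie in introns of other genes, whose reads cannot be told apart from theirs here.

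Structural RNA repeats other than rRNA (transfer RNA, small nuclear RNA, 5S, 7SK and the like) summed to 123, 62.2 and 120 RPM in LINE1 ASO replicates 1, 2 and 3, and to 127, 112 and 119 in RC ASO replicates 1, 2 and 3. LINE1 ASO replicate 2 was the low library. It also had the fewest repeat-assigned reads per 1000 gene-assigned reads, 52.4, against 72.8 and 77.0 in the other LINE1 ASO libraries and 64.5 to 79.0 in the RC ASO libraries. Of 76 names 20 were tested, of which 17 had a log2 fold change below 0 against 64% of all repeats. None of the 20 was called by edgeR, with 4 at an unadjusted p under 0.05, beside 51 of all 806 repeats tested. DESeq2 called 0 of them, but it gave no adjusted p to some, among them 5S, U13_, U14 and tRNA-Ser-TCA(m), so those could not be called. The median log2 fold change (edgeR) was -0.26, against -0.09 for all repeats. Without LINE1 ASO replicate 2 the median was -0.024, against 0.0049 for all repeats, with 12 of 20 below 0 and 1 called higher. Without LINE1 ASO replicate 1 it was -0.49. U13_, a small nucleolar RNA repeat, stood at -1.07 ± 0.32 (SE) and tRNA-Ser-TCA(m) at -1.12 ± 0.34 (SE), both with 10 to 53 reads per library. The U14 repeat was at 0 reads in LINE1 ASO replicate 2, where 3 reads would be 0.100 RPM, against 115 to 127 reads in the other libraries.

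Transcripts of replication-dependent histone genes end in a stem-loop in place of a poly(A) tail, although some of these genes also make polyadenylated forms. Of 60 genes 17 were tested, 3 rose and 0 fell, beside 4.93% of all genes higher and 1.17% lower, with a median log2 fold change of 0.35. Of the 17, 6 had a log2 fold change below 0, against 49% of all genes, the lowest at -0.69. The median depended on the filter on low counts: without it the value was 0.23, with 25 of 60 below 0. With the replicate block 4 were called higher and 1 lower, beside 2591 higher and 2373 lower of all 14725 genes. The median was 0.13 without LINE1 ASO replicate 1, 0.14 without LINE1 ASO replicate 2 and 0.22 without RC ASO replicate 1, where 19, 22 and 22 members were tested. The list sum was 33.3, 30.4 and 28.2 RPM in LINE1 ASO replicates 1, 2 and 3, against 22.1, 25.8 and 18.9 in RC ASO replicates 1, 2 and 3. Hist1h2bc rose by 1.26 ± 0.20 (SE, adjusted p = 0.0156), Hist1h4i by 1.72 ± 0.31 (adjusted p = 0.0246) and the linker histone gene Hist1h1c by 0.89 ± 0.21 (adjusted p = 0.0488, all edgeR, on the log2 scale). None of the 3 passed without RC ASO replicate 1 or without RC ASO replicate 3 (edgeR adjusted p 0.0795 to 0.188). Hist1h4i and Hist1h1c did not pass without LINE1 ASO replicate 1 or 3 either (0.0718 to 0.146, edgeR adjusted p), and Hist1h1c not without RC ASO replicate 2 (0.0640).

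**Figure D5:**
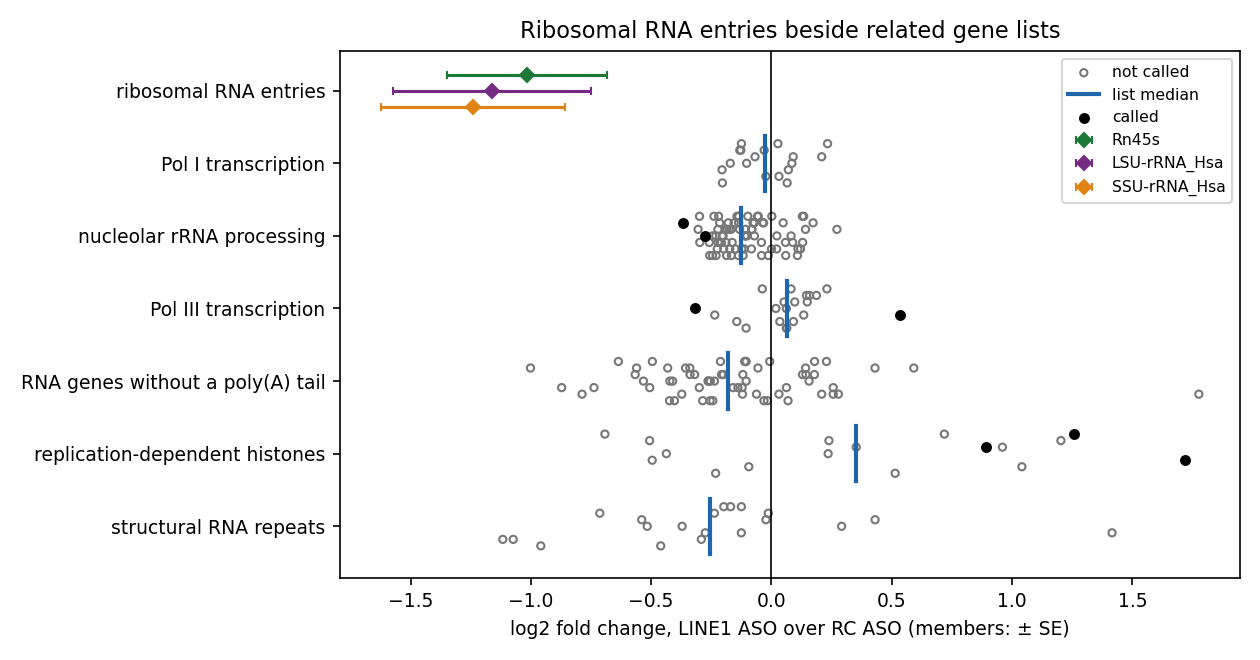
Log2 fold change of LINE1 ASO over RC ASO (x axis) of the rRNA entries (diamonds, ± SE) above 6 gene or repeat lists, with 1 circle per tested member, filled where called at an adjusted p under 0.05, and a bar at the list median. The rRNA entries lie between -1.02 and -1.24, and the list medians between -0.26 and 0.35.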

How the data were processed

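Both deposited tables hold unnormalized read counts, one by gene symbol and one by repeat name, with 1 column per library. The submitters' processing notes list build mm9 and, with no roles, DESeq2 1.12.3, R 3.3.0, HTSeq 0.6.1p1 and TopHat2 2.0.9. Not given in the sources used here are the repeat annotation, the strand setting and how multiply mapping reads were handled. rRNA sequence is present in many copies, so such reads could be lost, split or assigned to either table.

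Levels are counts divided by the library's gene-table total. Genes and repeats were tested in R 4.3.3 with edgeR 4.0.16 (filterByExpr at its default count of 10 and total of 15, robust quasi-likelihood fits on the arm), with library sizes and TMM factors of the gene table for both, and Benjamini-Hochberg adjustment over 14725 genes or 806 repeats. A call is an adjusted p under 0.05. Single values were compared with exact permutation tests (scipy 1.17.1). As alternatives, library totals, RLE factors, DESeq2 1.42.0, other filters, a replicate block, repeat-table scaling, 1 table of genes and repeats and left-out libraries were tried. The fits were also run on simulated data. The simulation gave both arms the same spread, so it does not cover the unequal spread of the rRNA entries.

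The labels give no meaning to a shared replicate number. Same-numbered libraries had deviations from their arm means, over all genes tested, that correlated at 0.436, 0.659 and 0.394, and differently numbered ones at -0.475 to 0.220. On this ground libraries of 1 number were set side by side as pairs and used as a block in alternative fits. The deviations were centred within each arm of 3 libraries, so these correlations constrain each other, and the pairing remains an assumption. The main fits and the permutation p-values quoted above do not use the pairing. Permuted within the 3 pairs, the smallest possible p is 0.25. That was the permutation p for the level of Rn45s, the summed rRNA repeats and SSU-rRNA_Hsa reads per Rn45s read.

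The members, lists and tests were chosen with earlier results of these data known. Named were the members, Ncl, the 5S repeat, up to 4 called genes of each list and direction (where none was called, the 2 with the smallest p) and the 5 genes and 5 repeats most correlated with rRNA. U14 was added after its values were seen. A further reference sequence is not reported here.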

Additional observations from a re-analysis of the deposited data

How the results depend on the processing

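Rn45s, LSU-rRNA_Hsa and SSU-rRNA_Hsa kept a log2 fold change below 0 under every alternative run, from -1.31 to -0.51, -1.48 to -0.64 and -1.54 to -0.69, and those ends came from leaving out RC ASO replicate 3 or RC ASO replicate 1. Of these entries only SSU-rRNA_Hsa passed anywhere, with DESeq2 (-1.26, adjusted p = 0.0306). The difference of log2 levels ranged from -1.13 to -0.41 for Rn45s and from -1.35 to -0.56 for the summed repeats with 1 library left out, where the smallest exact permutation p of 2 against 3 libraries is 0.2. The ratio of LSU to SSU reads ranged from -0.15 to 0.24 on the log2 scale with 1 library left out and was reversed without LINE1 ASO replicate 3, at -0.15. The ratio of LSU to Rn45s reads ranged from -0.34 to 0.046 and was reversed without LINE1 ASO replicate 2, at 0.046. The 5S repeat was reversed without LINE1 ASO replicate 2 (0.091) or both replicate 2 libraries (0.060). The agreement of the tables was r = 0.789 without the 2 libraries farthest from the median of Rn45s, where 4 libraries leave few orderings, and 0.945 to 0.996 with 1 library left out. The cause of these changes was not tested.

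The number of genes called, 899, was 4964 with the replicate block and 1625 with DESeq2, 162 to 1520 with 1 library left out, 55 without both replicate 1 libraries and 3039 without both replicate 2 libraries. The number of repeats called, 0, was 3 with repeat-table scaling, 6 in 1 table with the genes, 102 (35 higher, 67 lower) in that table with the replicate block, 0 with the block in the repeat table alone and 9 with DESeq2. It was 0 to 51 with 1 library left out, 2 without both replicate 1 libraries and 58 without both replicate 2 libraries. The counts with 2 libraries left out and that of 1 table with the block were chosen after seeing the data. For 22 other named genes and repeats, 249 of 306 values under alternatives kept the direction and the side of the threshold, 40 lost the call, 15 gained it and 2 were reversed. The 249 include the DESeq2 values of 5S, U13_, U14 and tRNA-Ser-TCA(m), which had no adjusted p and were taken as not called. Under the replicate block Ncl (edgeR adjusted p = 5.58e-04), Fcf1, Ttf1, Polr1c, Terc and Neat1 gained the call, and no member did. Counts of rRNA were high enough that the spread between libraries, not depth, set the precision.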
